A study of Mus musculus with 24 samples.

Results

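The 8 genes described here encode liver enzymes of phase II conjugation and ester hydrolysis: the sulfotransferases Sult1d1 and Sult5a1, the glucuronosyltransferase Ugt2b38, the acyltransferases Glyat and Nat8f1, and the carboxylesterases Ces2b, Ces2c and Ces3b. They were chosen by gene symbol from the 2372 genes of the deposited expression table, with earlier results of these data known. All 8 were found there and passed the filter on low values. The study sequenced RNA from the livers of 24 mice (12 of each sex), all fed the Lieber-DeCarli liquid alcohol diet for 3 weeks. Every mouse had received 2 injections of adeno-associated virus (AAV) vectors that carry short hairpin RNAs. The first was either AAV-shControl or the vectors AAV-shKdm5b and AAV-shKdm5c, directed at a pair of histone demethylase genes. The second was either AAV-shControl or AAV-shAhR, directed at the aryl hydrocarbon receptor, a transcription factor that senses foreign compounds. In each sex, 3 mice had control vectors in both injections, 3 had the Kdm5 vectors with a control second injection, 3 had a control first injection with the AhR vector, and 3 had both. No group without alcohol was included, so every value belongs to alcohol-fed liver. The labels name whole liver and give no strain, age, batch or promoter driving the hairpins, and they do not say that each library is a separate animal, although each is treated as 1 mouse here.

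Lipophilic drugs, hormones and dietary compounds are made easier to excrete when an enzyme joins a polar group to them. Sulfotransferases transfer a sulfate group, UDP-glucuronosyltransferases transfer glucuronic acid, and GLYAT joins acyl groups such as benzoate to glycine. NAT8-family enzymes are N-acetyltransferases, a family known for acetylating cysteine conjugates on the way to mercapturic acids. Carboxylesterases hydrolyse esters and amides of drugs and lipids, often exposing the group that is then conjugated. Many of these genes are known to differ between male and female mouse liver, where the pattern of growth hormone release acts through transcription factors such as STAT5B and BCL6.

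Expression was given as FPKM, a read level scaled to transcript length and library total. Groups were compared with limma on log2(FPKM + 0.5), and a log2 difference below is a difference of group means on that scale, which understates the change of genes at low levels. A gene was said to rise or fall when its p-value, adjusted by the Benjamini-Hochberg method over the 2299 genes tested, was under 0.05. Summed FPKM per library ranged from 281871 to 326460 in females and from 380206 to 429780 in males. Transcripts of 19 Mup genes, which encode major urinary proteins, made up 2.26 to 5.93% of the sum in females and 14.04 to 25.71% in males. Hepatocyte markers were present in every group, with the sum of 6 markers between 12555 and 18725 FPKM. Of the targeted genes only Kdm5c was measured in the table. Kdm5c ranged from 9.32 to 11.07 FPKM in control females, 9.05 to 9.94 with the Kdm5 vectors, 12.03 to 13.07 with the AhR vector and 9.37 to 12.46 with both. In males Kdm5c ranged from 6.39 to 7.21, 4.64 to 5.89, 6.92 to 7.81 and 4.86 to 5.36 FPKM in the same order of groups. Kdm5c with the Kdm5 vectors was below every control male, but the difference did not pass (log2 difference -0.38 ± 0.11 (SE, n = 3 per group), limma adjusted p = 0.139). In females the Kdm5c ranges overlapped, and the difference was -0.09 ± 0.11. Kdm5c therefore gave no check of the labels in females, and Kdm5b and Ahr were not analysed here.

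Several of the genes are neighbours. On GRCm38.p6, Ces2b (gene 234669) spans chr8:104828494-104840093, Ces2c (gene 234671) spans chr8:104847068-104854483 and Ces3b (gene 13909) spans chr8:105083733-105093929. Ces2b and Ces2c lie 7.0 kb apart, and Ces2c lies 229.2 kb from Ces3b. Ugt2b38 (gene 100559, chr5:87409939-87424203) and Sult1d1 (gene 53315, chr5:87554650-87569006) lie 130.4 kb apart on the minus strand, with Sult1b1 the only other table gene between them. Glyat (gene 107146) is at chr19:12633308-12651737, Nat8f1 (gene 66116) at chr6:85910154-85915914 and Sult5a1 (gene 57429) at chr8:123142843-123158914. The bases just upstream of the annotated gene are shown for Ces2c, Ces3b, Ugt2b38 and Sult1d1, because Ces2c and Ces3b fell together in 1 comparison in females, while the neighbours Ugt2b38 and Sult1d1 fell with different vectors in males. The sequences are from RefSeq on GRCm38.p6, 5′ to 3′ on the strand of the gene, at chr8:104846818-104847067 (plus), chr8:105083505-105083732 (plus), chr5:87424204-87424453 (minus) and chr5:87569007-87569256 (minus), with matches to the searched motifs in capitals.
Ces2c: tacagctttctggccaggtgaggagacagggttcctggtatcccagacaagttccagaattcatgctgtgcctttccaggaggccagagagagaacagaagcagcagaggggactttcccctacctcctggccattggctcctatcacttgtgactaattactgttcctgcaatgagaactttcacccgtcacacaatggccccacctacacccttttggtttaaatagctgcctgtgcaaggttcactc
Ces3b: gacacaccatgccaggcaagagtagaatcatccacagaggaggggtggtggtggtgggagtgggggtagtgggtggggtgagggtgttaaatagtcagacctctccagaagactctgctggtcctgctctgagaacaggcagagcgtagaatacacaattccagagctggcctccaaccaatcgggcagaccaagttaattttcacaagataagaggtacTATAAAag
Ugt2b38: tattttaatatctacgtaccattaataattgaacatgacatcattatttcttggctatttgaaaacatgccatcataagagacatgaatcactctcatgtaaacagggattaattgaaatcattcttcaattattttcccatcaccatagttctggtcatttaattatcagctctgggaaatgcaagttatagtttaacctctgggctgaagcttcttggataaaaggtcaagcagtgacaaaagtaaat
Sult1d1: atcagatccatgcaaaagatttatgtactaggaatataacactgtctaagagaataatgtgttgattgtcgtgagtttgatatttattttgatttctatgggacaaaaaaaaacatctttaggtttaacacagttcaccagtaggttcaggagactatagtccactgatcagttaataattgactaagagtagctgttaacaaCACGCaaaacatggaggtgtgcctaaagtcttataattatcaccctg

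Motifs of 5 kinds were searched on both strands in the 250 bases before the listed start of 7 of the 8 genes. For Ces3b the 228 of these bases outside the annotated gene are printed. The windows of Nat8f1 and Sult5a1 also reached into the annotated gene. The letters GCGTG, the core bound by the aryl hydrocarbon receptor with ARNT, were found in the windows of Sult1d1 (as CACGC on the printed strand) and Nat8f1. They were in 28.21% of the windows of 27025 genes and in 39.49% of those of 1884 table genes. The Nat8f1 match 43 bases before the listed start lies inside the annotated gene, and another was 216 bases before that start. A TATAAA box was found upstream of Ces3b, against 12.97% of all windows. The spaced palindrome TTCNNNGAA bound by STAT5 and BCL6, the E-box CACGTG and the D-box TTATGTAA were in 0 of the 7 windows, against 7.18%, 6.05% and 0.86% of all windows. A match describes the letters of these windows and is no evidence of binding. Ces2c and Ugt2b38 held none of the 5 motifs, so the windows of Ces2c and Ces3b shared none of them.

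The 8 genes covered a wide range of levels per transcript length. Over the 24 mice the median was 116.6 FPKM for Glyat, 107.7 for Ces3b, 72.87 for Sult1d1 and 62.33 for Nat8f1. Ces2c had a median of 16.12 FPKM, Sult5a1 7.54, Ces2b 3.84 and Ugt2b38 0.26. The median of Glyat exceeded that of 83.6% of the genes in the table, and that of Ugt2b38 exceeded 1.98%. Glyat varied least among the mice, with a coefficient of variation of 15.2%, and Ugt2b38 most, with 132%. For Ugt2b38, Ces2c and Ces3b the values of the 12 females and the 12 males did not overlap, as the plot of all values shows.

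**Figure D1:**
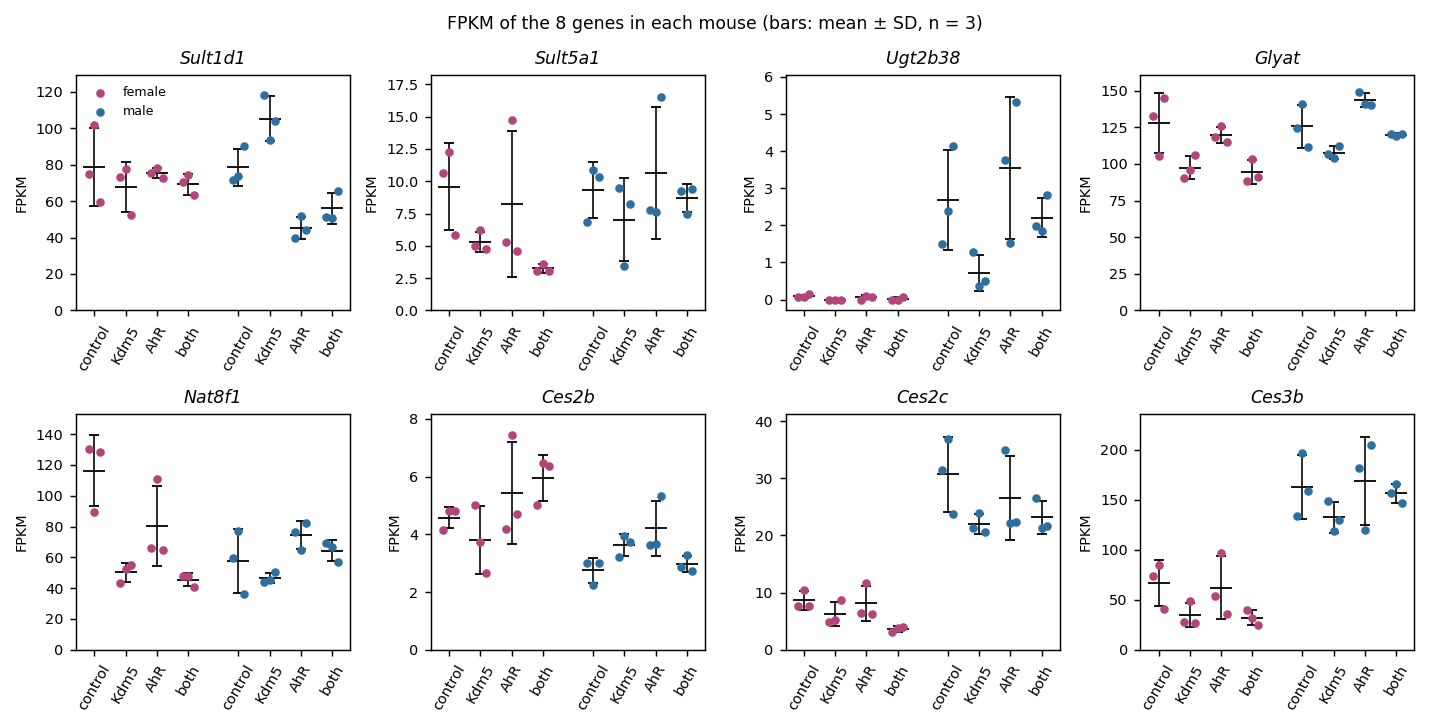
FPKM of the 8 genes in each of the 24 mice (y axis, linear, 1 panel per gene), by injected vectors (x axis) and sex (colour); points are mice, horizontal bars are group means and error bars the SD (n = 3). The sexes separate fully for Ugt2b38, Ces2c and Ces3b, Nat8f1 is highest in control females (89.5 to 130.62), and Sult1d1 is lowest in males with the AhR vector (39.56 to 51.61).

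The sexes are compared first. Averaged over the 4 vector settings, Ces2c, Ces3b, Ugt2b38, Sult5a1 and Glyat were lower in females and Ces2b was higher, while Sult1d1 and Nat8f1 did not pass. That is 6 of 8 genes, where 62.3% of all tested genes passed in either direction (42.9% higher and 19.4% lower in females), so the count itself is close to the background. With control vectors alone, 2 genes were higher in females and 3 lower, beside 42.5% of all genes (30.8% higher and 11.6% lower). The split over all genes depended on scaling: with median-of-ratios factors the 709 higher and 267 lower genes of the control comparison became 490 and 492, and the 986 and 447 of the average became 858 and 873. The median log2 difference of all genes in the control comparison was 0.15 as deposited and -0.00 after that scaling. Each of the 8 genes that passed in either of these comparisons had the same direction under both scalings.

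Ces2c, a carboxylesterase of the endoplasmic reticulum, had the clearest sex difference of the 3 esterases. Control females had 7.7, 10.51 and 7.69 FPKM, and control males 31.48, 36.79 and 23.82. The 12 females ranged from 3.07 to 11.63 FPKM (median 6.34) and the 12 males from 20.6 to 36.79 (median 23.1). The lowest male was thus above the highest female. The log2 difference with control vectors was -1.76 ± 0.24 (SE), a 3.40-fold lower value in females (limma adjusted p = 9.03e-06), and the average over vector settings was -1.93 ± 0.12 (adjusted p = 2.17e-11).

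Ces3b, also an endoplasmic reticulum carboxylesterase that acts on lipid esters, was at 73.34, 84.91 and 40.58 FPKM in control females and at 133.26, 196.89 and 158.2 in control males. All 12 females (24.48 to 97.08) were below all 12 males (118.35 to 204.75). The log2 difference was -1.34 ± 0.32 with control vectors (limma adjusted p = 0.00212) and -1.79 ± 0.16 on average (adjusted p = 5.8e-09). Ces2b went the other way at a far lower level. It was at 4.15, 4.8 and 4.79 FPKM in control females and at 3.01, 2.26 and 2.99 in control males. These groups did not overlap, although the full ranges of the sexes did (2.65 to 7.45 in females, 2.26 to 5.31 in males). Ces2b differed by 0.65 ± 0.20 with control vectors (limma adjusted p = 0.0141) and by 0.47 ± 0.10 on average (adjusted p = 0.000347). Without control male 2 the former was 0.53 with an adjusted p of 0.0665.

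Ugt2b38, a UDP-glucuronosyltransferase of the Ugt2b cluster, was close to 0 in females. It was at 0.07, 0.07 and 0.14 FPKM in control females and at 1.5, 2.4 and 4.14 in control males. Over all settings 6 of the 12 females were listed at 0 and the highest female was at 0.14, while males ranged from 0.38 to 5.32. The log2 difference on the pseudocount scale was -2.34 ± 0.32 with control vectors (limma adjusted p = 1.17e-05) and -2.16 ± 0.16 on average (adjusted p = 4.71e-10). That value depended on the pseudocount, running from -1.52 with 1 to -3.81 with 0.1 for the average. Reads from near-identical Ugt2b genes could have been split among copies during counting, so its level is uncertain.

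Nat8f1 was higher in females with control vectors. Control females had 130.62, 89.5 and 128.5 FPKM, and control males 59.87, 77 and 35.89. The groups did not overlap, and the log2 difference was 1.05 ± 0.22, or 2.08-fold (limma adjusted p = 0.000891). Averaged over vector settings the difference was 0.18 ± 0.11 (95% interval -0.05 to 0.42; adjusted p = 0.163), and without control male 2 it was 0.24 with an adjusted p of 0.0493. Sult1d1 had nearly equal sex means with control vectors, 78.8 ± 21.4 FPKM in females and 78.5 ± 10.2 in males (SD, n = 3). The log2 difference of Sult1d1 was -0.02 with a 95% interval of -0.38 to 0.34. The remaining differences were small: Glyat was lower in females by -0.18 ± 0.05 on average (limma adjusted p = 0.00363), and Sult5a1 by -0.50 ± 0.19 (adjusted p = 0.0286). With control vectors alone neither differed, at 0.02 for Glyat (limma adjusted p = 0.898) and -0.002 for Sult5a1 (adjusted p = 0.997). Their average differences thus rest on the groups with Kdm5 or AhR vectors. Sult5a1 lost the call of the average when any 1 of 8 of the 24 mice was left out, with values from -0.63 to -0.42 over all 24.

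In females with the Kdm5 vectors alone Nat8f1 and Glyat fell, and the other 6 genes did not pass. All 8 log2 differences were below 0, with a median of -0.42 against -0.02 over all genes. The 2 calls out of 8 stand beside 6.87% of all genes called (3.48% lower). Ranges did not overlap for 2 of the 8 genes, Nat8f1 and Ugt2b38, beside 23.8% of all genes.

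Nat8f1 fell from 130.62, 89.5 and 128.5 FPKM in control females to 43.24, 52.71 and 54.73 with the Kdm5 vectors. Every mouse with the vectors was below every control. The log2 difference was -1.19 ± 0.22, a 2.28-fold lower value (limma adjusted p = 0.00668). It passed when any 1 of the 6 mice was left out, but not with only these 2 groups in the fit (adjusted p = 0.0648). Glyat fell by less, from 132.95, 105.14 and 145.19 FPKM to 90.44, 95.77 and 106.33. Its highest mouse with the vectors was above the lowest control, so these groups overlapped. The log2 difference of Glyat was -0.38 ± 0.10 (limma adjusted p = 0.0332). It did not pass without control mouse 1 or 3 or without Kdm5-vector mouse 1 or 2, with values from -0.51 to -0.28 and adjusted p up to 0.141.

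Among the genes that did not pass, Ces3b had the next largest difference. It was at 27.93, 48.29 and 26.83 FPKM with the Kdm5 vectors, and the highest of these exceeded the lowest control (40.58). Its log2 difference was -0.92 ± 0.32 (limma adjusted p = 0.0799). Without control mouse 3 that difference was -1.24 with an adjusted p of 0.037, and with library weights -0.98 with an adjusted p of 0.0287. It also passed without AhR-vector mouse 2, which is in neither group but shares in the estimate of the spread (adjusted p = 0.0417). Sult5a1 was at 4.99, 6.21 and 4.75 FPKM, beside 10.65, 12.3 and 5.82 in controls, and Ces2c at 4.91, 5.18 and 8.68. Ugt2b38 was listed at 0 in all 3 mice.

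With both vectors, 5 of the 8 genes fell in females: Nat8f1, Sult5a1, Ces2c, Ces3b and Glyat. None rose, and 11.6% of all genes were called in this comparison (3.78% lower). The median log2 difference of the 8 genes was -0.71, against 0.02 over all genes, and 6 of the 8 had groups that did not overlap, beside 32.8% of all genes. The sixth was Ces2b, which lay higher. Because the 8 genes were chosen with earlier results known, the contrast with all genes is descriptive, here and in the other comparisons.

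Nat8f1 was at 47.83, 48.22 and 40.46 FPKM with both vectors. All 3 were below every control female. It differed from control by -1.33 ± 0.22, or 2.51-fold lower (limma adjusted p = 0.00233), and it passed in all 6 fits that left out 1 mouse. Glyat was at 88.4, 103.41 and 91.15 FPKM, just below the lowest control at 105.14, with a log2 difference of -0.43 ± 0.10 (limma adjusted p = 0.0164). It did not pass without control mouse 1 or 3 or without both-vector mouse 1 or 3 (values from -0.56 to -0.33, adjusted p up to 0.0707).

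Sult5a1, a sulfotransferase whose substrates are poorly known, was at 3.03, 3.63 and 3.09 FPKM. Control females had 10.65, 12.3 and 5.82, all higher. On the log2 scale the difference was -1.37 ± 0.39, or 2.58-fold lower (limma adjusted p = 0.0322). It did not pass without control mouse 1 or 2 or without any 1 of the both-vector mice (values from -1.68 to -1.17, adjusted p up to 0.109).

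Ces2c was at 3.07, 3.8 and 4.06 FPKM, the lowest of the 8 groups. Every control female, at 7.7, 10.51 and 7.69, was above these values. It differed from control by -1.13 ± 0.24, or 2.19-fold lower (limma adjusted p = 0.00821), and it passed in all 6 fits that left out 1 mouse. Ces3b was at 39.31, 31.8 and 24.48 FPKM, with its highest mouse just under the lowest control at 40.58. Ces3b fell to 0.499 of the control level on the FPKM + 0.5 scale, with a 95% interval of the log2 difference of -1.66 to -0.34 (SE 0.32; limma adjusted p = 0.0455). It did not pass without control mouse 1 or 2 or without any 1 of the both-vector mice (values from -1.32 to -0.79, adjusted p up to 0.154), nor, through the shared spread, without any 1 of 9 of the 18 other mice (adjusted p up to 0.0556). Ces2b was at 5.02, 6.46 and 6.35 FPKM, above all 3 controls, with a log2 difference of 0.34 ± 0.20 that did not pass (limma adjusted p = 0.265).

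Summed levels of some non-hepatocyte markers differed between these groups of females. The sum of 7 sinusoidal endothelial markers was 85.9 to 99.9 FPKM in control females and 109 to 126 with both vectors, and that of 5 stellate cell and fibroblast markers was 132 to 146 and 169 to 190. With the Kdm5 vectors alone the sums were 108 to 110 and 149 to 170. The sum of 8 macrophage and Kupffer cell markers was 476 to 521 in control females, 437 to 487 with the Kdm5 vectors and 429 to 581 with both. Hepatocyte marker sums ran from 12651 to 14063, 13650 to 17473 and 14158 to 16305 in the same order. Sums follow their most abundant genes, Dcn for stellate cells (68.56 to 161.45 FPKM over all libraries) and Apoa1 for hepatocytes. The median log2 difference of the stellate markers was -0.24 with the Kdm5 vectors, opposite to their sum, and 0.29 with both. For the endothelial markers these medians were 0.04 and 0.30, and for the hepatocyte markers 0.00 and -0.06. The part of these shifts in the differences of the 8 genes was not tested, and in whole liver fewer cells of a type and less RNA per cell cannot be told apart.

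**Figure D2:**
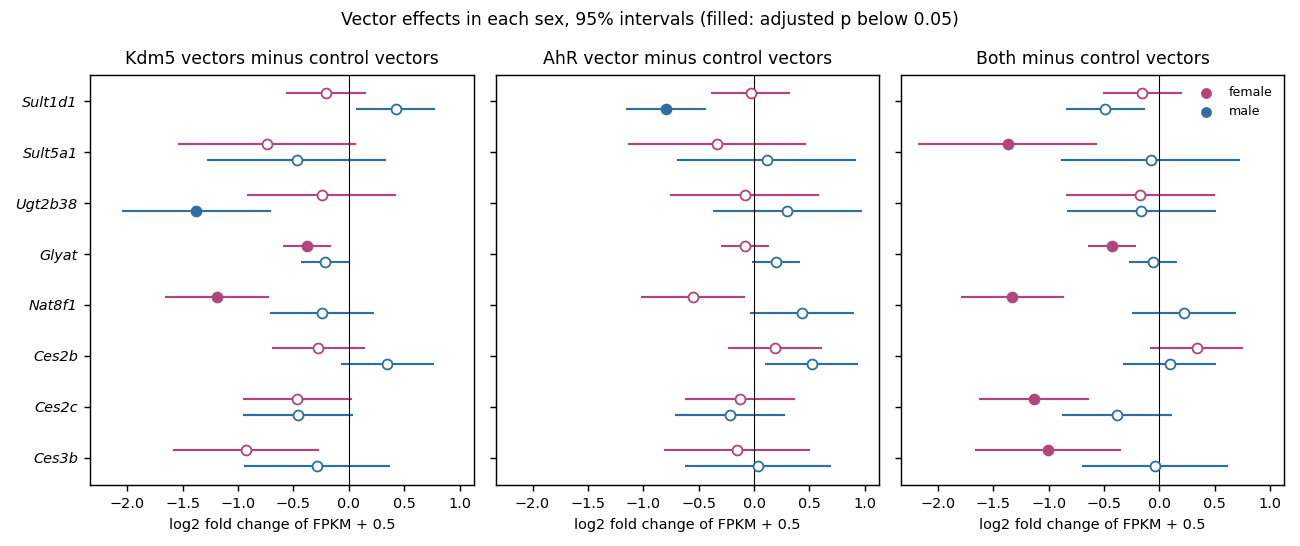
Difference of log2(FPKM + 0.5) from control vectors (x axis) for each of the 8 genes (y axis) with the Kdm5 vectors, the AhR vector or both, in females and males (colour); circles are fitted differences, lines 95% intervals, and filled circles passed an adjusted p of 0.05. In females 2, 0 and 5 genes are filled from left to right, all to the left of 0, and in males 1, 1 and 0.

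The AhR vector alone gave no call among the 8 genes in females. In this limma fit 0.217% of all genes were called. Of the 8 genes 1, Nat8f1, had an unadjusted p under 0.05, beside 297 of all 2299 genes. Nat8f1 was at 66, 110.68 and 64.95 FPKM, with 2 of 3 mice below every control and a log2 difference of -0.55 ± 0.22 (adjusted p = 0.289). Ces3b was at 53.25, 97.08 and 35.53 FPKM, Ces2c at 6.4, 11.63 and 6.29 and Sult5a1 at 5.32, 14.75 and 4.59. In each of these triplets mouse 2 was the highest. It was the highest of its group for all 8 genes, by a median of 0.72 on the log2 scale over the mean of its mates, although its typical deviation over all genes (median 0.175) lay within the range of the 24 libraries (0.111 to 0.203). Without mouse 2 the log2 differences from control were -0.80 for Nat8f1 (adjusted p = 0.141), -0.83 for Sult5a1, -0.53 for Ces3b and -0.40 for Ces2c, and that of Ces2b went from 0.19 to -0.04. None of them passed.

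Adding 1 kind of vector to the other gave no call in females either, beside 2.09% of all genes for the AhR vector added to the Kdm5 vectors and 0.696% for the reverse. At an unadjusted p under 0.05 the limma counts were 2 and 5 of the 8 genes, beside 496 and 354 of all 2299 genes. Ces2c came nearest: females with both vectors (3.07 to 4.06 FPKM) were below all females with the AhR vector alone (6.29 to 11.63) and all with the Kdm5 vectors alone (4.91 to 8.68). The log2 differences were -1.01 ± 0.24 (limma adjusted p = 0.054) and -0.67 ± 0.24 (adjusted p = 0.122). Without AhR-vector mouse 3 the former was -1.15 with an adjusted p of 0.0383. Ces2b was at 5.02 to 6.46 FPKM with both vectors and 2.65 to 5.01 with the Kdm5 vectors alone, a log2 difference of 0.61 ± 0.20 (adjusted p = 0.101). Without Kdm5-vector mouse 1 that difference was 0.81 with an adjusted p of 0.0391.

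In males 1 gene fell with each kind of vector, Ugt2b38 with the Kdm5 vectors and Sult1d1 with the AhR vector. With both vectors no gene of the 8 passed in limma, and 1, Sult1d1, had an unadjusted p under 0.05, beside 339 of all 2299 genes. The background was 1.22% of all genes for the Kdm5 vectors (0.174% lower), 1.09% for the AhR vector (0.261% lower) and 2.35% for both. Scaling by median-of-ratios factors changed the AhR split over all genes from 19 higher and 6 lower to 11 and 10. The median log2 differences of the 8 genes were -0.26, 0.15 and -0.07, against 0.01, 0.07 and 0.01 over all genes. Groups did not overlap for 3, 2 and 1 of the 8 genes, beside 14.8%, 16.6% and 20.7% of all genes.

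Sult1d1, a sulfotransferase that acts on catecholamines and other phenolic amines, was at 71.32, 73.9 and 90.16 FPKM in control males. With the AhR vector it was at 39.56, 51.61 and 43.94, with no overlap. This was a log2 difference of -0.79 ± 0.17 (limma adjusted p = 0.0249). It did not pass without control mouse 3 or without AhR-vector mouse 1 or 3 (values from -0.90 to -0.69, adjusted p up to 0.109). With the Kdm5 vectors Sult1d1 was at 118.06, 93.57 and 104.11 FPKM, above every control, but its log2 difference of 0.42 ± 0.17 did not pass (adjusted p = 0.395). With both vectors it was at 51.19, 50.95 and 65.61 FPKM. These were all below the Kdm5-vector males, and the log2 difference was -0.91 ± 0.17, or 1.88-fold lower (limma adjusted p = 0.0162). Of all genes tested 0.913% were called for the AhR vector added to the Kdm5 vectors in males, and Sult1d1 was the only one of the 8 genes. That call was lost without Kdm5-vector mouse 1 or 3 or without any 1 of the both-vector mice (values from -1.03 to -0.82, adjusted p up to 0.0777).

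Sult1d1 had its 5 lowest values of the 24, 39.56 to 51.61 FPKM, in males that received the AhR vector. The same vector left Sult1d1 at 75.09, 77.98 and 72.7 FPKM in females, within the control range of 59.58 to 101.84. The AhR effect in females minus that in males was 0.76 ± 0.24 (95% interval 0.26 to 1.27), which did not pass (limma adjusted p = 0.165; 0.565% of all genes called). Without control female 2 it was 0.97 with an adjusted p of 0.0459. The neighbour Sult1b1, another phenol sulfotransferase, was not called with the AhR vector in either sex.

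Ugt2b38 was at 1.5, 2.4 and 4.14 FPKM in control males and at 1.27, 0.38 and 0.49 with the Kdm5 vectors. The groups did not overlap. The log2 difference was -1.38 ± 0.32 (limma adjusted p = 0.0367), and it was lost when any 1 of the 6 mice was left out (values from -1.68 to -1.06, adjusted p from 0.0532 to 0.21) and with a pseudocount of 0.1 (adjusted p = 0.17). It was also lost through the shared spread without both-vector male 2 or female Kdm5-vector mouse 3 (adjusted p up to 0.0528). The AhR vector alone gave 3.77, 1.52 and 5.32 FPKM and both vectors 1.97, 1.84 and 2.82. The values with both vectors were all above those with the Kdm5 vectors alone, a log2 difference of 1.21 ± 0.32 that did not pass (adjusted p = 0.0807). It passed with library weights (adjusted p = 0.00703) and without AhR-vector male 2 or 3 (adjusted p = 0.0363 and 0.0486).
The sum of 8 macrophage and Kupffer cell markers moved with Ugt2b38 in males. It was 225 to 324 FPKM in controls, 214 to 240 with the Kdm5 vectors, 286 to 398 with the AhR vector and 224 to 342 with both, and its part in the result was not tested. In females that sum was 416 to 581 FPKM while Ugt2b38 was at or below 0.14.

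The other 6 genes were not called in any vector comparison in males. Nat8f1 was at 59.87, 77 and 35.89 FPKM in controls, 43.72, 45.38 and 50.23 with the Kdm5 vectors, 76.4, 64.8 and 82.61 with the AhR vector and 69.56, 66.88 and 56.9 with both. Each of the other groups overlapped the controls, which spread widely. Glyat was lowest with the Kdm5 vectors (104.24 to 112.33 FPKM) and highest with the AhR vector (140.48 to 148.71), and each overlapped the controls (111.63 to 140.52). Glyat's log2 differences from control were -0.21 ± 0.10 and 0.20 ± 0.10 (limma adjusted p = 0.498 and 0.402). Ces2b was above every control (2.26 to 3.01 FPKM) with the AhR vector (3.62 to 5.31) and with the Kdm5 vectors (3.2 to 3.93), with log2 differences of 0.52 ± 0.20 and 0.35 ± 0.20 that did not pass (adjusted p = 0.23 and 0.654). For Ces2c, Ces3b and Sult5a1 each group with a vector overlapped the controls. Adding the Kdm5 vectors to the AhR vector in males gave no call among the 8 genes, beside 3.26% of all genes. In limma 2 of 8 had an unadjusted p under 0.05, beside 374 of all 2299 genes.

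The difference of the vector effects between the sexes passed for 1 gene. With both vectors the Nat8f1 effect in females was -1.33 and in males 0.22, and the difference was -1.55 ± 0.32 (95% interval -2.21 to -0.89; limma adjusted p = 0.0111), beside 5.92% of all genes called (1.39% lower). It passed in all 12 fits that left out 1 mouse, with values from -1.79 to -1.25. Control females had the highest Nat8f1 of the 8 groups, 116.2 ± 23.2 FPKM, and both-vector females the lowest, 45.5 ± 4.37 (SD, n = 3). With both vectors the females (40.46 to 48.22) were below the males (56.9 to 69.56), whereas with control vectors they were above.

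For the Kdm5 vectors alone and the AhR vector alone, no sex difference passed among the 8 genes, beside 1.74% and 0.565% of all genes. At an unadjusted p under 0.05 the limma counts were 4 and 2 of 8, beside 393 and 318 of all 2299 genes. Nat8f1 gave -0.95 ± 0.32 for the Kdm5 vectors (limma adjusted p = 0.133) and -0.98 ± 0.32 for the AhR vector (adjusted p = 0.171). For both vectors Ces3b gave -0.96 ± 0.45, Sult5a1 -1.29 ± 0.55, Ces2c -0.75 ± 0.34 and Glyat -0.37 ± 0.14, with adjusted p between 0.108 and 0.169. Without control female 2 the Glyat value was -0.50 with an adjusted p of 0.0275. With only the compared groups in the fit the Sult5a1 value of -1.29 passed (limma adjusted p = 0.0485). So in the main fit the falls of Sult5a1, Ces2c, Ces3b and Glyat in females are not shown to differ from the male values.

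No interaction of the Kdm5 and AhR vectors passed for any of the 8 genes in either sex, beside 0.609% of all genes in females and 1.61% in males. Beside 234 and 294 of all 2299 genes, limma gave an unadjusted p under 0.05 for 0 of 8 in females and 1 of 8 in males. That gene was Ces2b, whose interaction in males was -0.78 (95% interval -1.37 to -0.18; adjusted p = 0.203). For Nat8f1 in females the interaction was 0.41 with an interval of -0.25 to 1.08, and for Ces2c in females -0.54 with -1.24 to 0.16. The intervals are wide enough that effects of the vectors that add or partly overlap cannot be separated for these genes.

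Some of the 8 genes varied together over the 24 mice. After the mean of each sex was removed from log2(FPKM + 0.5), the closest pairs among them were Glyat with Nat8f1 (Pearson r = 0.877, with 0.9 in females and 0.837 in males) and Sult5a1 with Ces3b (r = 0.832, with 0.895 and 0.722). These are descriptions over libraries that share their vectors and their scaling. Ces2b had r between -0.235 and 0.118 with the other 7 genes, and Ces2c with its neighbour Ces2b gave -0.235. Sult1d1 correlated negatively with Nat8f1 in males (r = -0.818) and weakly in females (0.194).

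**Figure D3:**
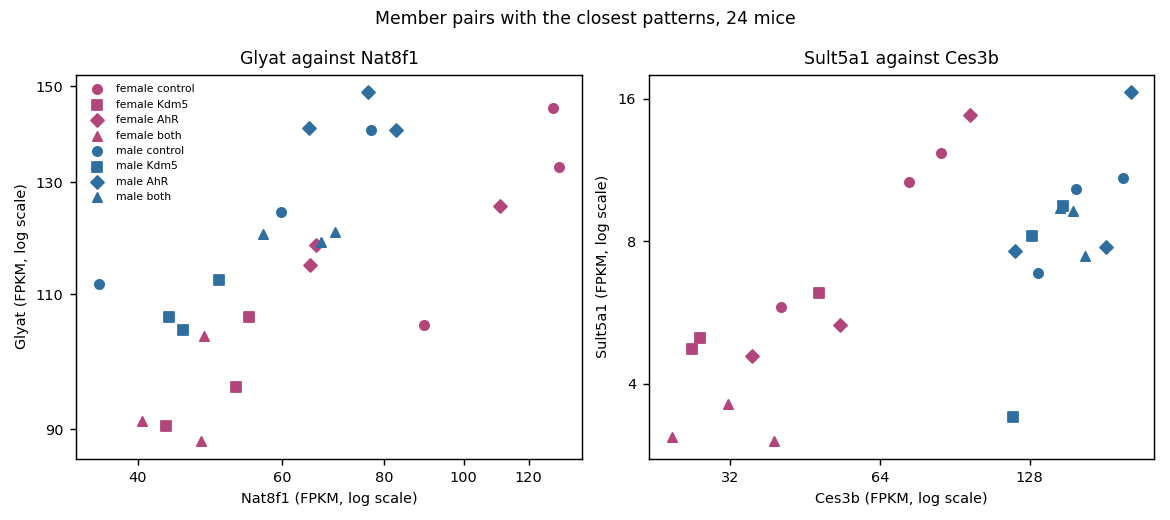
FPKM of Glyat against Nat8f1 and of Sult5a1 against Ces3b in the 24 mice (both axes logarithmic); colour gives sex and symbol the vectors. Females with both vectors sit at the low end of both panels (Nat8f1 40.46 to 48.22, Sult5a1 3.03 to 3.63), and the sexes separate along Ces3b.

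Over the whole table the genes closest to Nat8f1 were Rgn and Gabarapl1 (r = 0.883 each), and for Glyat they were Nat8f1 and Kyat3 (0.869). Rgn encodes regucalcin, a calcium-binding protein, and Kyat3 a kynurenine aminotransferase. Ces3b was closest to Gm21320 (0.852) and its neighbour Ces3a (0.838), and Sult5a1 to Ces3b and Gm21320 (0.801). The Gm21320 values were lower within males, 0.916 in females and 0.401 in males with Ces3b, and 0.943 and 0.394 with Sult5a1. With Ces3a the values were 0.837 in females and 0.875 in males. Ces2c was closest to the cytochromes P450 Cyp1a2 (0.778, with 0.817 in females and 0.689 in males) and Cyp2f2 (0.777, with 0.885 and 0.447). Ces2b was closest to Kmt2e (0.85) and Kmt2d (0.83), which belong to a family of histone lysine methyltransferases. Sult1d1 was closest to Ncoa4 (0.773) and Cyp39a1 (0.763), with r of 0.905 and 0.85 within males but 0.351 and 0.294 within females. Ugt2b38 was closest to Srd5a1 (0.704), a steroid reductase, and Tmsb4x (0.7), which encodes thymosin beta. Within females, where Ugt2b38 was near 0, these were 0.187 and 0.715, and within males 0.788 and 0.835.

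The carboxylesterase genes of chromosome 8 placed the 3 members among 9 relatives in the table. In the females-minus-males average, 5 of 12 were higher (Ces1b, Ces1c, Ces1d, Ces2b, Ces2g) and 6 lower (Ces1e, Ces2a, Ces2c, Ces3a, Ces3b, Ces4a). Of all genes 42.9% were higher and 19.4% lower. Ces2c had the lowest value (-1.93), followed by Ces3b (-1.79) and Ces3a (-1.33 ± 0.11). Ces2b, at 0.47, lies between Ces2a (-0.43 ± 0.06) and Ces2c and had the opposite sign. With both vectors in females, 4 of 12 fell (5 after median-of-ratios scaling), beside 3.78% of all genes. The 4 were Ces2c, Ces3b, Ces3a (-0.79 ± 0.22, limma adjusted p = 0.0323) and Ces2a (-0.52 ± 0.11, adjusted p = 0.0103). All 4 were also among the 6 that were lower in females on average, but that average includes the both-vector females. With control vectors alone Ces2c, Ces3a and Ces3b were lower in females, and Ces2a was not called. The median over the 12 genes with both vectors in females was -0.40. In males with the Kdm5 vectors Ces1e rose (0.52 ± 0.12, limma adjusted p = 0.0367), and it was the only esterase called, beside 1.22% of all genes.

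**Figure D4:**
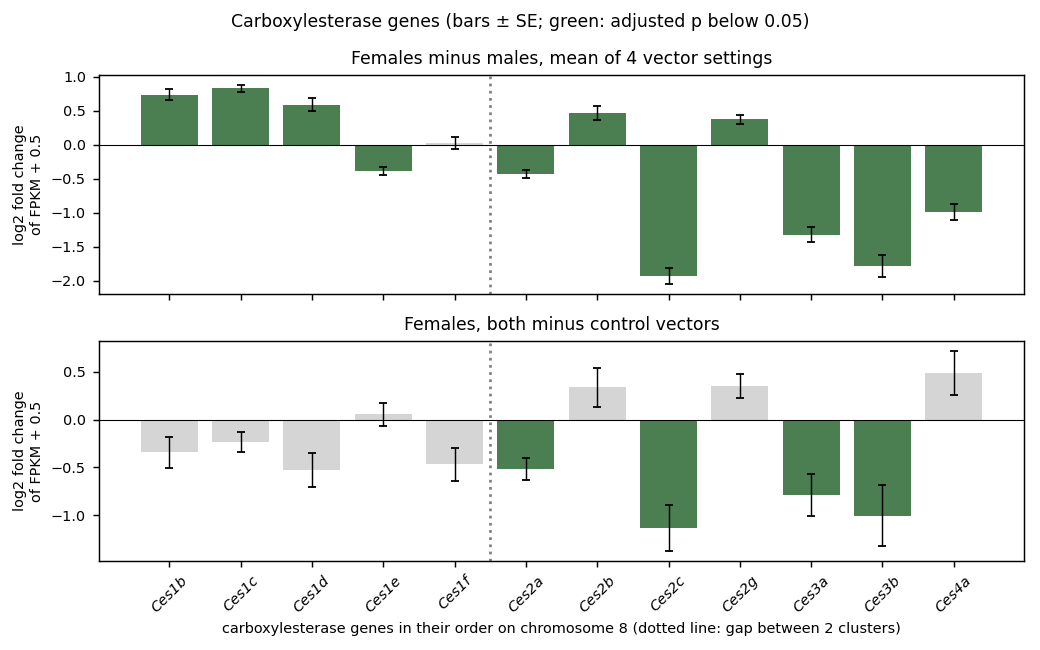
Difference of log2(FPKM + 0.5) (y axis) for 12 carboxylesterase genes in their order on chromosome 8 (x axis, not to scale in distance), between females and males averaged over 4 vector settings (top) and between females with both and with control vectors (bottom); bars are fitted differences, error bars the SE, green bars passed an adjusted p of 0.05. Ces2c, Ces3a and Ces3b are the 3 lowest in both panels, while Ces2b and Ces2g of the same cluster lie above 0.

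The wider pathway was described by 138 further genes of conjugation, donor supply and ester or epoxide hydrolysis, of which 72 were in the table and 70 were tested. In females the Kdm5 vectors gave 0 higher and 5 lower, the AhR vector 0 and 0, and both vectors 4 higher and 9 lower, beside 6.87%, 0.217% and 11.6% of all genes called. The 5 of 70 with the Kdm5 vectors is near the share called in either direction. All 5 were lower, however, and 3.48% of all genes were called lower there. With both vectors 3.78% of all genes were called lower. In males the same comparisons gave 1 higher and 0 lower, 0 and 0, and 0 and 0, beside 1.22%, 1.09% and 2.35% of all genes. At an unadjusted p under 0.05 limma gave 9 of 70 for the AhR vector in females, and in males 4 of 70 for the AhR vector and 4 for both. Over all 2299 genes the numbers were 297, 319 and 339 in the same order. The medians over the 70 genes were -0.08 with the Kdm5 vectors and -0.09 with both in females, against -0.02 and 0.02 over all genes.

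Among the other sulfotransferases, Sult2a1 (2.79 ± 0.68, limma adjusted p = 0.017), Sult2a3 (2.88 ± 0.63, adjusted p = 0.00979) and Sult2a5 (2.02 ± 0.56, adjusted p = 0.0293) rose in females with both vectors, opposite to Sult5a1. SULT2A enzymes sulfate bile acids and steroids. Sult2a1 ranged from 46.82 to 138.04 FPKM in control females and from 475.42 to 711.94 with both vectors, and it was at most 0.23 in males. Its spread was wide with the Kdm5 vectors alone, 48.87 to 840.99 FPKM. Sult2a8 fell with the Kdm5 vectors (-0.89 ± 0.25, adjusted p = 0.0364). Sult2a1, Sult2a3 and Sult2a5 are near-identical copies, so their separate levels are uncertain.

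Of the other glucuronosyltransferases, Ugt2b1, Ugt2b36 and Ugt2a3 fell in females with the Kdm5 vectors (-0.61 ± 0.17, -0.50 ± 0.13 and -0.50 ± 0.12) and with both (-0.75, -0.46 and -0.40), limma adjusted p between 0.013 and 0.0403. Ugdh, which makes the glucuronic acid donor, fell with both vectors (-0.64 ± 0.19, adjusted p = 0.0355). In the acyl conjugation list no gene other than Glyat and Nat8f1 passed with a vector in females. The Nat8f1 relatives Nat8 and Nat8f5 were lower in females than in males by -3.91 ± 0.13 and -3.56 ± 0.14, at 0.364 and 0.133 FPKM on average in females and 12.5 and 7.03 in males. Nat8f1 thus differed from Nat8 and Nat8f5 in its sex pattern on the sign of the control comparison, 1.05 against -3.88 and -3.47. Nat8f2, a relative at a higher level, averaged 205.6 FPKM in females and 314.4 in males.

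Outside those classes, Gsta3 (-0.76 ± 0.17, limma adjusted p = 0.0118) and Gstm6 (-0.71 ± 0.21, adjusted p = 0.0342), glutathione transferases, fell in females with both vectors. Aadac, an arylacetamide deacetylase, fell with the Kdm5 vectors (-0.36 ± 0.07) and with both (-0.45 ± 0.07), and Tpmt, a thiopurine methyltransferase, rose with both (0.55 ± 0.16, adjusted p = 0.0342). The sex difference of the effect of both vectors passed for 3 of these 70 genes, beside 5.92% of all genes called (1.39% lower). They were Ugt2b1 (-0.94 ± 0.25, limma adjusted p = 0.0272), Ugt2a3 (-0.60 ± 0.17, adjusted p = 0.0464) and Aadac (-0.45 ± 0.11, adjusted p = 0.0166). All 3 had the sign seen for Nat8f1.

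**Figure D5:**
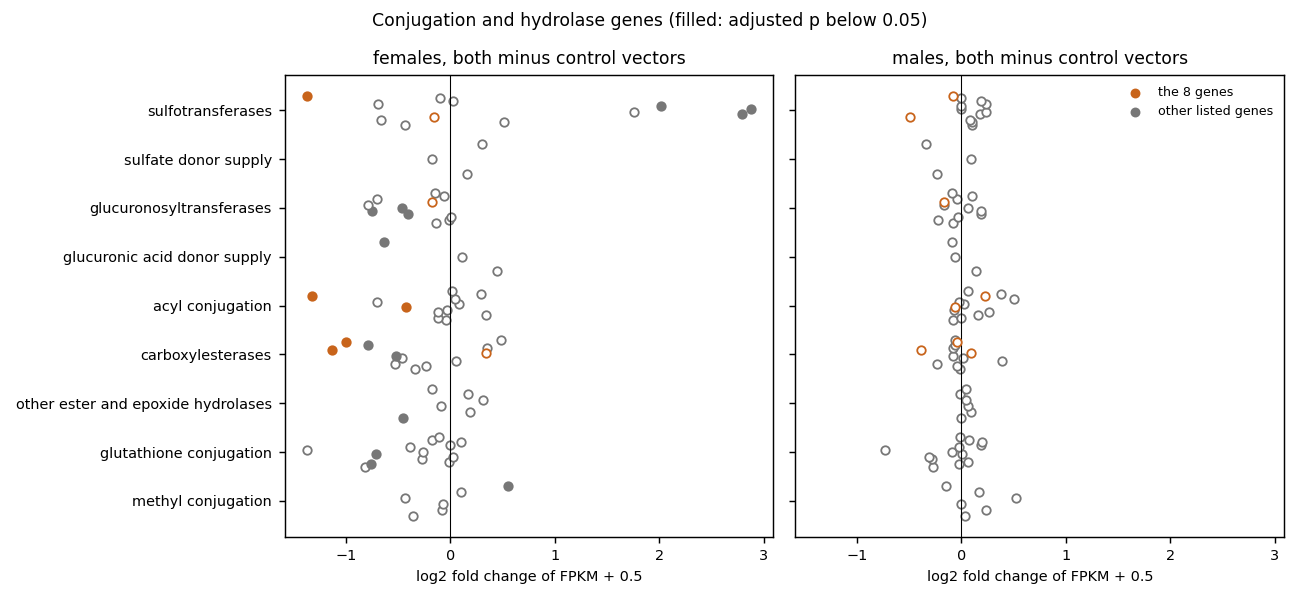
Difference of log2(FPKM + 0.5) between both and control vectors (x axis) for all tested conjugation and hydrolase genes by class (y axis), in females (left) and males (right); each circle is a gene, orange the 8 genes, grey the other 70, and filled circles passed an adjusted p of 0.05. In females 5 orange and 13 grey circles are filled, and in males none.

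Transcription factors known to act on these genes were followed as a list of 18, with 11 in the table. In males 1 of the 11 rose with the Kdm5 vectors and 1 with the AhR vector, and with both 3 rose and 0 fell (1 fell after median-of-ratios scaling). These counts stand beside 1.22%, 1.09% and 2.35% of all genes called. In females 1 rose with the Kdm5 vectors and 3 with both, beside 6.87% and 11.6% of all genes. None passed in limma with the AhR vector in females, where 3 of 11 had an unadjusted p under 0.05, beside 297 of all 2299 genes. Bcl6, which encodes a transcriptional repressor, was at 3.89 to 4.73 FPKM in control males, 16.26 to 31.4 with the AhR vector, 6.57 to 9.57 with the Kdm5 vectors and 1.99 to 2.28 with both. Female ranges were 5.52 to 7.75, 6.43 to 13.48, 5.38 to 12.34 and 4.38 to 7.87 FPKM in the same order. Bcl6 rose in males by 2.38 ± 0.29 with the AhR vector (limma adjusted p = 0.000111). Nr1i2, which encodes the pregnane X receptor, rose in males with the Kdm5 vectors (0.54 ± 0.12, limma adjusted p = 0.0308) and with both (0.60 ± 0.12, adjusted p = 0.0144). In females Onecut1 (0.94 ± 0.25, limma adjusted p = 0.0332) rose with the Kdm5 vectors. With both vectors Dbp (2.24 ± 0.44, adjusted p = 0.00631) and Tef (1.05 ± 0.21, adjusted p = 0.00631), D-box factors of the circadian clock, rose in females together with Onecut1 (0.80 ± 0.25, adjusted p = 0.0464). Dbp also rose in males with both vectors (2.17 ± 0.44, adjusted p = 0.0144). The time of day of liver collection is not given in the labels, and its part was not tested.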

How the data were processed

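Whole-liver RNA of 24 mice was sequenced, with libraries prepared by the sequencing provider's protocol, per the labels' protocols. The authors deposited 1 table of FPKM values for 2372 genes, per the file headers; for gene selection, counting step and strand the entry is "not given in the sources used here". HISAT, Bowtie2 and GRCm38.p6 are named per the submitters' processing notes, without versions. Low values were whole multiples of the smallest for only 23.9% (tolerance 0.005, 75 genes), so the depth is unknown and no counting interval is given.

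The filter kept genes that reached 1 FPKM in 3 or more libraries (2299 tested, 73 left out). Values were analysed as log2(FPKM + 0.5) with limma 3.58.1 (R 4.3.3; trend, robust), with 8 group means and 16 residual degrees of freedom, in 17 comparisons. P-values were adjusted by Benjamini-Hochberg over all genes tested within a comparison, with a threshold of 0.05, and measure the spread between libraries only. The fit was tested on simulated data first. Groups came from the labels, and replicates were numbered in accession order. Alternatives were median-of-ratios scaling, pseudocounts of 0.1 and 1, no filter, a filter of 5 FPKM, library weights, a fit of the compared groups alone, and leaving out each mouse.

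The 8 genes and all lists were chosen with earlier results of these data known, and 1 listed gene and 1 motif are not reported here. Named besides the 8 genes are, per list and comparison, at most 2 genes with the highest and 2 with the lowest log2 difference among those passing, plus the 2 genes with the highest correlation to each of the 8. Other genes were named after their values were seen, to complete a small count or as neighbours. Of the 2372 gene IDs, 2358 matched RefSeq on GRCm38.p6.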

Additional observations from a re-analysis of the deposited data

Results flagged for a closer look

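With both vectors, the Nat8f1 effect differed between the sexes: the female effect minus the male effect was -1.55 on the log2 scale (limma adjusted p = 0.0111), a test of the difference itself. Nat8f1 was lower in 3 of 3 both-vector females than in any control female. In males the both-vector values (56.9 to 69.56 FPKM) lay inside the control range (35.89 to 77).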

How the results depend on the processing

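Of the tested results of the 8 genes, 22 passed and 114 did not. Where a result passed in the main fit or in the alternative, 0 reversed in sign. Results that passed in neither were not counted as reversed. Among them Ces2b with the AhR vector in females went from 0.19 to -0.04 without AhR-vector mouse 2. For the 22, 143 of 151 values under the planned settings and 205 of 246 with 1 mouse left out kept their side of the threshold, and the others no longer passed. With only the compared groups in the fit, the calls against control vectors went from 7 to 2 in females (Nat8f1 and Ces2c with both vectors) and from 2 to 0 in males, and the calls of a sex difference in vector effects from 1 to 2. The male count was 1 with a filter of 5 FPKM, where Ugt2b38 was not tested, and 1 with a pseudocount of 0.1. Library weights gave 8 calls in place of 7 against control vectors in females, 1 in place of 0 for vectors added to the other in females, 3 in place of 1 in males, and 2 in place of 1 for sex differences in vector effects. Median-of-ratios scaling and a pseudocount of 0.1 each gave 1 in place of 0 for vectors added in females. With 1 mouse of the groups compared left out, the calls against control vectors ranged from 3 to 8 in females and from 0 to 2 in males, those for vectors added from 0 to 1 in females and from 0 to 2 in males, and those for sex differences from 1 to 3. The causes were not tested, beyond the fewer samples in some fits. No paired analysis was possible because the labels give no replicate numbers that pair mice. The number of mice per group and the unknown depth limit the precision, most of all for Ugt2b38 near 0 FPKM.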
